A study of Mus musculus with 6 samples.

Results

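The genes described here are 34 interferon-stimulated genes, among 54532 genes quantified by RNA-seq in mouse liver. They were chosen by symbol as type I and type II interferon targets, with earlier results of these data known. All 34 symbols were found. The mice were male C57BL/6J offspring, 8 weeks old. In the paternal saline group (3 livers) the father had been given saline, and in the paternal nicotine group (3 livers) the father had been given nicotine. The offspring carry no treatment of their own in the labels, and the number of fathers and litters is not stated, so the p-values cover the variation among these 6 livers and nothing wider. The series is about paternal nicotine and fibrosis of the offspring liver, and the comparison made here is of paternal nicotine against paternal saline.

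Interferons are secreted proteins that cells use to warn each other of infection. Type I interferons signal through the receptor chains Ifnar1 and Ifnar2 and the kinases Jak1 and Tyk2 to a complex that holds Stat2 and Irf9 and binds the interferon-stimulated response element (ISRE) in target promoters. Interferon gamma, the type II interferon made mainly by T and NK cells, signals through Ifngr1 and Ifngr2 and acts on promoters at the gamma-activated site (GAS). Hepatocytes, Kupffer cells and endothelial cells of the liver can all respond, and a low level of these transcripts is present without infection.

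The members' promoters were searched for the letters of these 2 elements. RefSeq promoter windows on GRCm38.p6, each of 300 bases from 250 before the annotated start, matched 27 of the 34 members. The ISRE core, written as GAAA, any 2 bases and GAAA again and searched on both strands, was in 17 of the 27 (63.0%), against 3.99% of 27025 genes with a window. The GAS letters, TTC, any 3 bases and GAA, which read alike on both strands, were in 8 of the 27 (29.6%), against 9.55% of all genes. Both motifs were in 5 members (Bst2, Eif2ak2, Gbp7, Igtp and Oas1a), and matches of the 2 motifs shared bases in Bst2 alone. Neither was in 7 members. A match describes letters in this window and is not a measured binding site.

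The 6 windows printed here are examples from some of the roles of the members, 5′ to 3′ on the gene's strand, with every base of an ISRE core or GAS match in capitals. None is of an oligoadenylate synthetase or an RNA sensor. Isg15 and Ifit1 are targets of the complex with Stat2 and Irf9, Stat2 is part of that complex, and Gbp2, Igtp and Irf1 are known as interferon gamma targets.
Isg15, chr4:156200769-156201068, minus strand: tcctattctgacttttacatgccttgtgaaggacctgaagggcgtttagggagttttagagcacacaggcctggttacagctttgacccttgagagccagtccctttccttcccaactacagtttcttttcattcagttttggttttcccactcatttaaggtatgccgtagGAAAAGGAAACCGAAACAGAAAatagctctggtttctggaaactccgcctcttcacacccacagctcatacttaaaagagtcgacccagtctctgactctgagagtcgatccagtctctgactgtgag
Ifit1, chr19:34640639-34640938, plus strand: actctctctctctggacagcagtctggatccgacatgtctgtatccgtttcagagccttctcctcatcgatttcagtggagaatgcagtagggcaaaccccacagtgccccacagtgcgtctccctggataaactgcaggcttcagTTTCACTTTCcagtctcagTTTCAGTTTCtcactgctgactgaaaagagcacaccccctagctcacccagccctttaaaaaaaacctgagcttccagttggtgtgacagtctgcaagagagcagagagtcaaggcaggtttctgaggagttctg
Stat2, chr10:128270248-128270547, plus strand: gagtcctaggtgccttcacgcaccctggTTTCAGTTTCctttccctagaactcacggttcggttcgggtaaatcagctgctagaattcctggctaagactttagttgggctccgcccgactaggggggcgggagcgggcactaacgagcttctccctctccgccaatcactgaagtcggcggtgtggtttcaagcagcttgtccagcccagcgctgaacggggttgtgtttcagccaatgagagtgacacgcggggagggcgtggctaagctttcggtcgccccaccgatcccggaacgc
Gbp2, chr3:142620413-142620712, plus strand: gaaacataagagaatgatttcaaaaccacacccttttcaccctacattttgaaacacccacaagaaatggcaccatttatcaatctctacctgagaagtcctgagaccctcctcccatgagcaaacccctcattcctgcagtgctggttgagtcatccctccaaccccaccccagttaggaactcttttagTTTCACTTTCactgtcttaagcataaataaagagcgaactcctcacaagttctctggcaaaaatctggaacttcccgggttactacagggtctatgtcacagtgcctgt
Igtp, chr11:58199306-58199605, plus strand: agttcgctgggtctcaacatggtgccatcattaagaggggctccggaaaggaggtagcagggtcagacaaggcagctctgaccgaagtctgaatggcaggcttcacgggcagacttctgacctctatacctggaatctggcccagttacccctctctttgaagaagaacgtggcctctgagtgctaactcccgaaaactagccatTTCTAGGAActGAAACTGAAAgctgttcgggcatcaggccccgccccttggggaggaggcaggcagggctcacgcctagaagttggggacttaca
Irf1, chr11:53769764-53770063, plus strand: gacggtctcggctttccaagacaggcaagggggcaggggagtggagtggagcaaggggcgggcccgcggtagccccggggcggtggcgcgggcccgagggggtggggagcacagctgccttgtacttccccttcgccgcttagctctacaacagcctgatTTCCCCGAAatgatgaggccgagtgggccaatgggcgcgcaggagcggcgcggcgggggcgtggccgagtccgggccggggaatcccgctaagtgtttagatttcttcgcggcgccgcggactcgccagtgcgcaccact
Counting from 0 at the annotated start, the 3 ISRE core matches of Isg15 begin 78, 72 and 66 bases upstream, each sharing bases with its neighbour. Those of Ifit1 begin 104 and 85 bases upstream on the opposite strand. The match of Stat2 lies farther out, 222 bases upstream, and that of Gbp2 lies 59 bases upstream. Igtp holds a GAS match 45 bases and an ISRE core 34 bases upstream, and Irf1 holds a GAS match alone, 90 bases upstream.

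Levels are given as RPKM, reads scaled to gene length and to the total of the library, and rest on library totals, recovered from the deposited values, of 61837267 to 70089315 reads per library. The gene length behind these values is the summed length of all transcripts, so levels do not compare between genes. Each member had at least 43 reads in every library. A gene was tested if its mean over the 6 libraries was at least 1 RPKM, which held for 24 of the 34 members and 8773 genes in all. The 10 hepatocyte markers summed to 27402 to 34268 RPKM in saline and 15743 to 16372 RPKM in nicotine livers, and 2 of the 10, albumin (Alb) among them, passed the test as lower, 0 as higher (median log2 fold change of the list 0.01). The 9 mitochondrial transcripts, listed as a sign of RNA quality, were all lower in nicotine with no overlap, and 1 of them fell in the test (median log2 fold change -0.30). Some libraries stood apart: paternal nicotine replicate 2 held pancreatic enzyme transcripts (Ctrb1 at 1621 RPKM, and 0 in the other libraries), and replicate 3 had the highest macrophage markers of each group.

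None of the 24 tested members passed the test between groups, 0 higher and 0 lower. The 4 members with an unadjusted p under 0.05 were Usp18, Dhx58 and Oasl1, lower in all 3 nicotine livers than in any saline liver, and Stat2, higher in all 3. Of the 4 tested guanylate-binding and immunity-related GTPases, Gbp2, Igtp and Irgm1 had positive fold changes and Iigp1 a negative one, all with overlapping groups. The test was limma on log2(RPKM + 1) with Benjamini-Hochberg adjustment over all 8773 genes, two-sided, at an adjusted p of 0.05. It passed 9.28% of all tested genes, 3.89% higher and 5.39% lower. The 4 members with an unadjusted p under 0.05 are 4 of 24, against 26.3% of all tested genes, and limma voom on the reads behind the values gave the same counts of 0 and 4. Groups did not overlap for 5 of 24 members (20.8%), 1 higher and 4 lower, against 33.6% of all tested genes, 14.4% higher and 19.2% lower. The fold change was negative for 17 of 24 members (70.8%) against 52.7% of all tested genes, with a median of -0.17 against -0.02 on the log2 scale. Ifit1, Oasl1, Ifih1 and Ddx58 reached the tested level through the saline livers, their nicotine means being below 1 RPKM. Lower nicotine values were thus favoured by their selection. All 4 are among the 17 negative members, and Oasl1 is also among the 4 lower ones without overlap. Without a filter on low values the fold change was negative for 22 of 34 members, and that share was not computed for all genes. The count of 0 became 3 without paternal nicotine replicate 3, where Usp18, Dhx58 and Oasl1 passed, all lower, and 2 with quantile normalization (Usp18 and Dhx58). In these settings 658 of 8696 and 817 of 8773 tested genes passed. Paternal nicotine replicate 3 was the highest nicotine library for 18 of the 24 tested members, so leaving it out alone lowers their nicotine means. Without replicate 3 of both groups 0 of 22 tested members passed, and only 108 of all 8659 tested genes did.

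**Figure D1:**
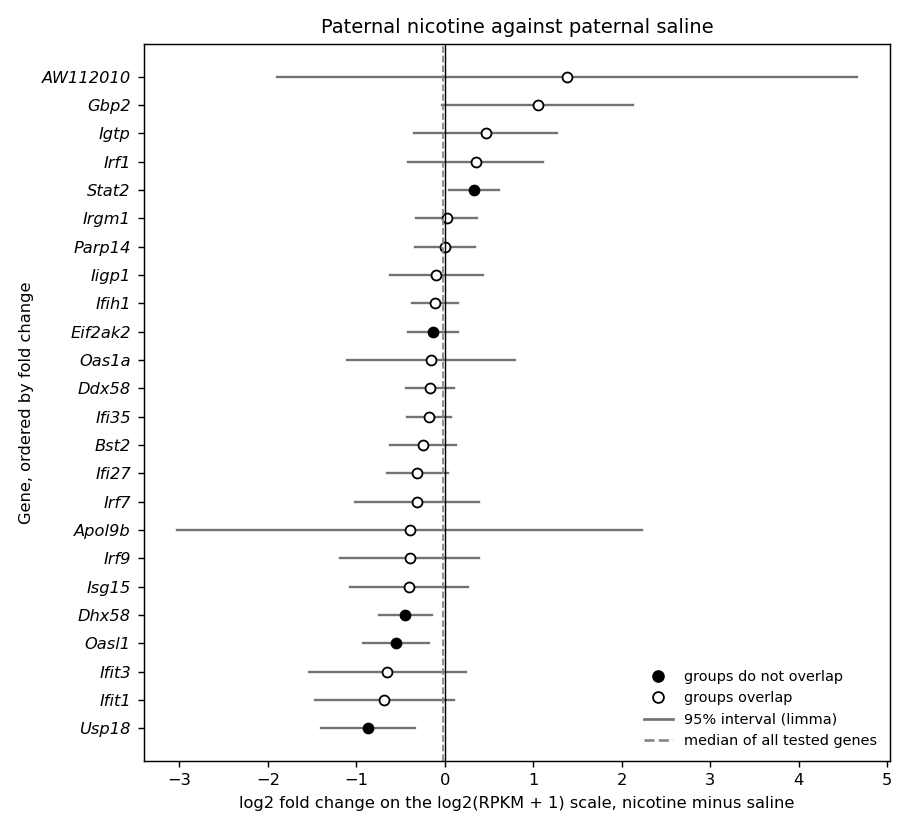
The log2 fold change of the 24 tested members on the log2(RPKM + 1) scale, paternal nicotine minus paternal saline (x axis), with the 95% interval from limma for 3 livers per group (bars), ordered by size (y axis). Filled points mark the 5 genes whose groups do not overlap: Usp18, Oasl1, Dhx58 and Eif2ak2 to the left and Stat2 to the right of 0. The intervals of AW112010 and Apol9b are the widest.

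Isg15 encodes a ubiquitin-like protein that is attached to other proteins during an interferon response, and Usp18 encodes the protease that removes it and that also dampens signalling at the type I receptor. Usp18 (ENSMUSG00000030107, GRCm38 chromosome 6, 121245906 to 121270917) was at 2.61, 2.58 and 3.70 RPKM in the saline livers against 0.723, 1.03 and 1.87 RPKM in the nicotine livers. Each paternal nicotine value lay below the lowest paternal saline value, and replicate 3 was the highest of both groups. Its means were 2.97 ± 0.638 and 1.21 ± 0.591 RPKM (SD, n = 3 per group), a saline to nicotine ratio of 2.46, and its log2 fold change was -0.87 (SE 0.22, 95% interval -1.40 to -0.34, limma adjusted p = 0.0629). Without paternal nicotine replicate 3 the limma adjusted p of Usp18 was 0.0342, and with quantile normalization 0.0407. Usp18 shares 124 exonic bases with Gm44148 on the opposite strand, which was at 0 to 1.23 RPKM. Isg15 was at 13.0, 14.6 and 21.6 RPKM in the saline livers against 9.71, 10.1 and 17.0 RPKM in the nicotine livers. The groups overlapped through nicotine replicate 3, and the fold change of Isg15 was -0.40 (SE 0.27, limma adjusted p = 0.409). A near-identical copy of Isg15, AC151275.1, could share its reads.

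The RNA sensors Ifih1 (MDA5) and Ddx58 (RIG-I) detect viral RNA, Dhx58 (LGP2) is a related helicase that modulates them, and Eif2ak2 (PKR) is a kinase that stops translation on binding double-stranded RNA. All 4 were tested and all 4 had negative fold changes, where 52.7% of all tested genes did. Ifih1 and Ddx58 reached the tested level through the saline livers alone, so a negative fold change was favoured by their selection. Dhx58 was at 1.98, 2.04 and 2.20 RPKM in the saline livers against 1.03, 1.13 and 1.65 RPKM in the nicotine livers. The groups did not overlap, and the saline values lay within a narrow range (SD 0.111) while nicotine replicate 3 was the nearest to them. The log2 fold change of Dhx58 was -0.45 (SE 0.12, 95% interval -0.74 to -0.15, limma adjusted p = 0.0783), with 0.0329 without paternal nicotine replicate 3 and 0.0407 with quantile normalization. Eif2ak2 was at 2.01, 1.99 and 2.79 RPKM against 1.98, 1.90 and 1.95 RPKM. These groups were apart by a small gap, with saline replicate 3 above all others (log2 fold change -0.14, SE 0.12). Ifih1 ranged from 0.845 to 1.37 RPKM and Ddx58 from 0.816 to 1.32 RPKM over the 6 libraries, with overlapping groups.

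The oligoadenylate synthetases make a second messenger that activates RNA cleavage by RNase L, while Oasl1 and Oasl2 are the oligoadenylate synthetase-like members, Oasl1 being a known brake on Irf7 translation in mice. Oasl1 was at 1.77, 1.74 and 1.74 RPKM in the saline livers against 0.660, 0.694 and 1.36 RPKM in the nicotine livers. The saline libraries differed by little (SD 0.0185), and nicotine replicates 1 and 2 lay well below replicate 3. The log2 fold change of Oasl1 was -0.55 (SE 0.15, 95% interval -0.92 to -0.18, limma adjusted p = 0.0822), and 0.0231 was the adjusted p without paternal nicotine replicate 3. Oas1a was at 3.41, 4.11 and 7.19 RPKM against 2.30, 4.03 and 7.06 RPKM. Its groups overlapped widely, with replicate 3 highest in each. Its copy Oas1g (97.6% identical over 1861 bases) followed the same order, and the 2 summed to 5.53 ± 2.27 against 5.19 ± 2.83 RPKM. Oas1g, Oas2 and Oasl2 were below the tested level.

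The Ifit proteins bind foreign RNA and block its translation. Ifit1 was at 1.84, 1.09 and 3.86 RPKM in the saline livers against 0.594, 1.12 and 1.07 RPKM in the nicotine livers. The groups overlapped through saline replicate 2, and saline replicate 3 was well above the other libraries. The log2 fold change of Ifit1 was -0.68 (SE 0.32, limma adjusted p = 0.248). Ifit3 was at 5.67, 3.24 and 7.11 RPKM against 1.58, 3.07 and 4.65 RPKM, again with overlap (log2 fold change -0.65, SE 0.36). Summed with its copy Ifit3b (97.8% identical over 1700 bases), it was at 6.82 ± 2.61 against 3.86 ± 1.79 RPKM. Ifit2, below the tested level, was at 1.15 ± 0.454 against 0.750 ± 0.382 RPKM.

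The transcription factors of the pathway differed in sign among themselves. Stat2 was at 2.07, 2.73 and 2.03 RPKM in the saline livers against 2.84, 3.37 and 3.13 RPKM in the nicotine livers. All 3 nicotine values were above the saline values, the nearest pair being 2.73 and 2.84. The log2 fold change of Stat2 was 0.33 (SE 0.11, 95% interval 0.05 to 0.61, limma adjusted p = 0.135), and over all alternatives its adjusted p was between 0.0770 and 0.372. Irf9, its partner, was at 2.30, 2.37 and 3.46 RPKM against 2.01, 0.766 and 3.07 RPKM. Paternal nicotine replicate 2 was the lowest by far, and Irf9 shares 123 exonic bases on the same strand with Rnf31. Irf7, the factor that amplifies type I interferon production, was at 1.52, 1.67 and 3.03 RPKM against 1.26, 0.847 and 2.39 RPKM. Both Irf7 and Irf9 had replicate 3 highest and overlapping groups, with log2 fold changes of -0.31 (SE 0.28) and -0.40 (SE 0.32). Irf1, a primary interferon gamma target, was at 2.78, 3.06 and 3.36 RPKM against 3.78, 2.48 and 7.28 RPKM. Nicotine replicate 3 stood well above the rest, nicotine replicate 2 was the lowest of all 6, and the fold change was 0.35 (SE 0.31, limma adjusted p = 0.533).

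Guanylate-binding proteins and immunity-related GTPases are interferon-induced enzymes that attack the vacuoles of intracellular microbes, and interferon gamma is a known strong inducer of them. Gbp2 was at 0.950, 0.927 and 2.32 RPKM in the saline livers against 1.65, 4.36 and 6.78 RPKM in the nicotine livers. Nicotine replicate 1 lay below saline replicate 3, so the groups overlapped although the nicotine mean was 3.05 times the saline mean. The log2 fold change of Gbp2 was 1.05 (SE 0.44, 95% interval -0.03 to 2.13, limma adjusted p = 0.201), and no alternative brought it past the threshold (lowest adjusted p 0.0818). Igtp was at 3.70, 3.87 and 5.42 RPKM against 3.79, 6.04 and 10.4 RPKM. It had the same order of libraries as Gbp2 within paternal nicotine (log2 fold change 0.46, SE 0.33), and shares 162 exonic bases on its strand with Irgm2. Irgm1 was at 3.42 ± 0.0889 against 3.53 ± 0.809 RPKM and Iigp1 at 33.6 ± 10.4 against 30.5 ± 2.96 RPKM. Of these 6 GTPase genes 4 were tested, with a median log2 fold change of 0.24, and the other 20 tested members had a median of -0.28. This split was not among the planned comparisons, and the difference between these sets of genes was not tested.

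**Figure D2:**
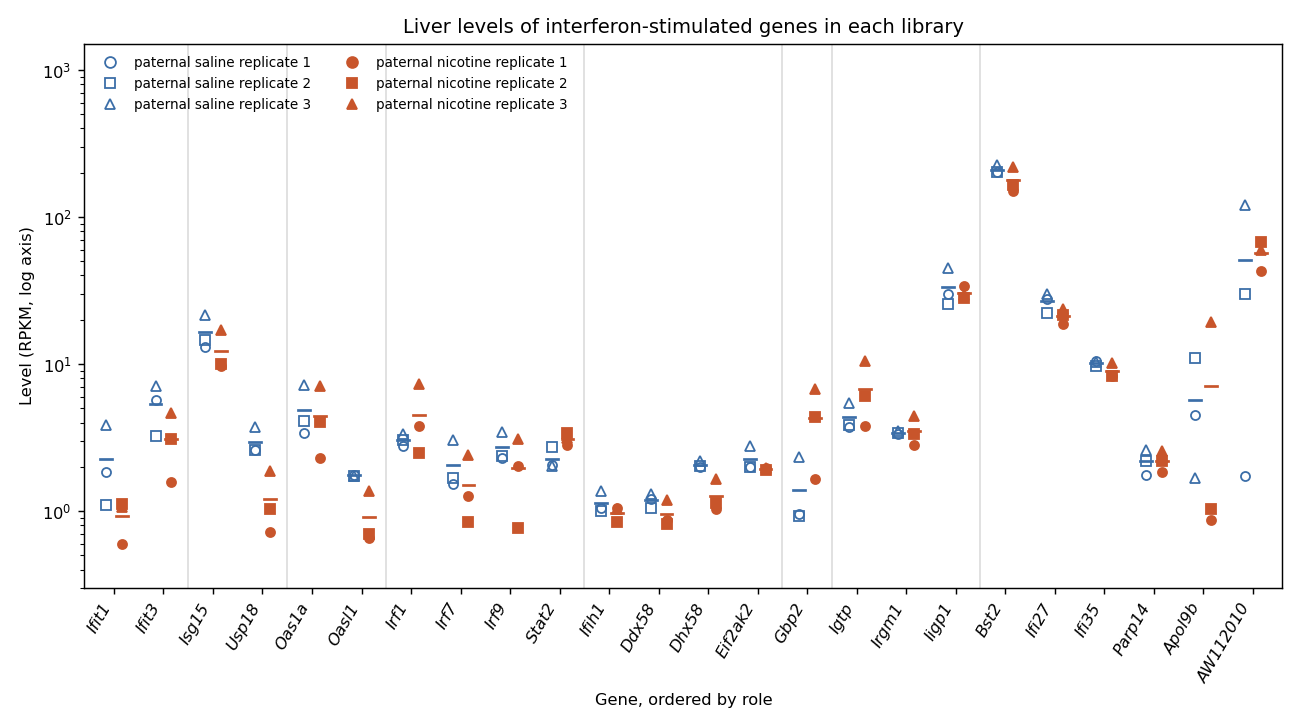
Level of each tested member (RPKM, log axis) in every library, genes grouped by role, with open blue points for the 3 paternal saline livers, filled orange points for the 3 paternal nicotine livers, and short lines at the group means. Usp18, Oasl1 and Dhx58 show paternal nicotine points wholly below the saline points, and Gbp2 shows the spread from 1.65 to 6.78 RPKM within paternal nicotine.

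The remaining tested members are a mixed group. Bst2, which encodes tetherin, the protein that holds budding virus at the cell surface, was at 200.9, 200.7 and 226 RPKM against 151, 165 and 218 RPKM (log2 fold change -0.25, SE 0.15). Ifi27, a mitochondrial interferon-induced gene, was at 27.5, 22.3 and 30.1 RPKM against 18.7, 21.4 and 23.6 RPKM (log2 fold change -0.31, SE 0.14). In both, nicotine replicate 3 carried the overlap with saline. Ifi35 had a mean of 10.1 ± 0.452 against 8.90 ± 1.03 RPKM, and Parp14, an ADP-ribosyltransferase, 2.19 ± 0.425 against 2.19 ± 0.356 RPKM.

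The widest spread within groups was in AW112010 and Apol9b. AW112010, an interferon-induced transcript, was at 1.74, 30.1 and 121 RPKM in the saline livers against 43.1, 67.2 and 59.8 RPKM in the nicotine livers. The 3 saline livers thus enclosed the nicotine livers, and 83 reads in saline replicate 1 stood against 5973 in saline replicate 3. Its log2 fold change of 1.38 (SE 1.33) turned to -0.12 without paternal saline replicate 1. Apol9b, an apolipoprotein L family gene, was at 4.51, 11.0 and 1.68 RPKM against 0.866, 1.04 and 19.4 RPKM, with saline replicate 3 the lowest of its group and nicotine replicate 3 the highest of all. Apol9a matches it at 99.8% over 1529 bases, so the division of reads is uncertain. The sum of both was 15.9, 21.7 and 16.7 RPKM in the saline livers, against 3.66, 5.72 and 29.4 RPKM in the nicotine livers, with nicotine replicate 3 above all saline livers and the other 2 below them. The copies are scaled to unlike lengths (4572 bases for Apol9b and 7744 for Apol9a), so this sum still depends on the division of reads. The same holds for the sums of Oas1a with Oas1g and of Ifit3 with Ifit3b.

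The 10 members below the tested level were at 0.0875 to 1.64 RPKM. Rsad2 encodes viperin, an antiviral enzyme that makes a chain-terminating nucleotide, and was at 0.826, 0.487 and 1.63 RPKM against 0.272, 0.433 and 0.678 RPKM. Ifi44 was at 0.247, 0.246 and 0.531 RPKM against 0.0875, 0.157 and 0.180 RPKM, the 1 gene of the 10 whose groups did not overlap. Among all tested genes 33.6% did not overlap (19.2% lower), so 1 of 10 is not many, and the share among genes below the tested level was not computed. Without a filter on low values none of the 34 members passed (lowest limma adjusted p 0.164), and only 367 of all 25531 genes did. The median log2 fold change of the members was -0.15 there, against 0.00 over the 25531 genes. The levels of Gbp3, Gbp7, Oas1g, Oas2, Oasl2, Rtp4, Xaf1 and Ifit2 overlapped between groups.

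Within each group the members tended to be high in the same library. Saline replicate 3 was the highest saline library for 29 of 34 members, and nicotine replicate 3 was the highest nicotine library for 26 of 34. Among the 24 tested members these counts were 20 (83.3%) and 18 (75.0%), against 40.9% and 49.9% of all tested genes. Relative to the group mean, the median member deviated by 0.21 on the log2 scale in saline replicate 3 and by 0.28 in nicotine replicate 3, against 0.03 and 0.05 for the median tested gene. In nicotine replicate 1 the median member deviated by -0.17, and 4 of 34 members were above their group mean. The median SD within a group was 0.22 in paternal saline and 0.28 in paternal nicotine for the 24 tested members, against 0.14 in each for all tested genes. It was wider in paternal nicotine for 16 of 24 members (66.7%), against 48.5% of all tested genes.

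**Figure D3:**
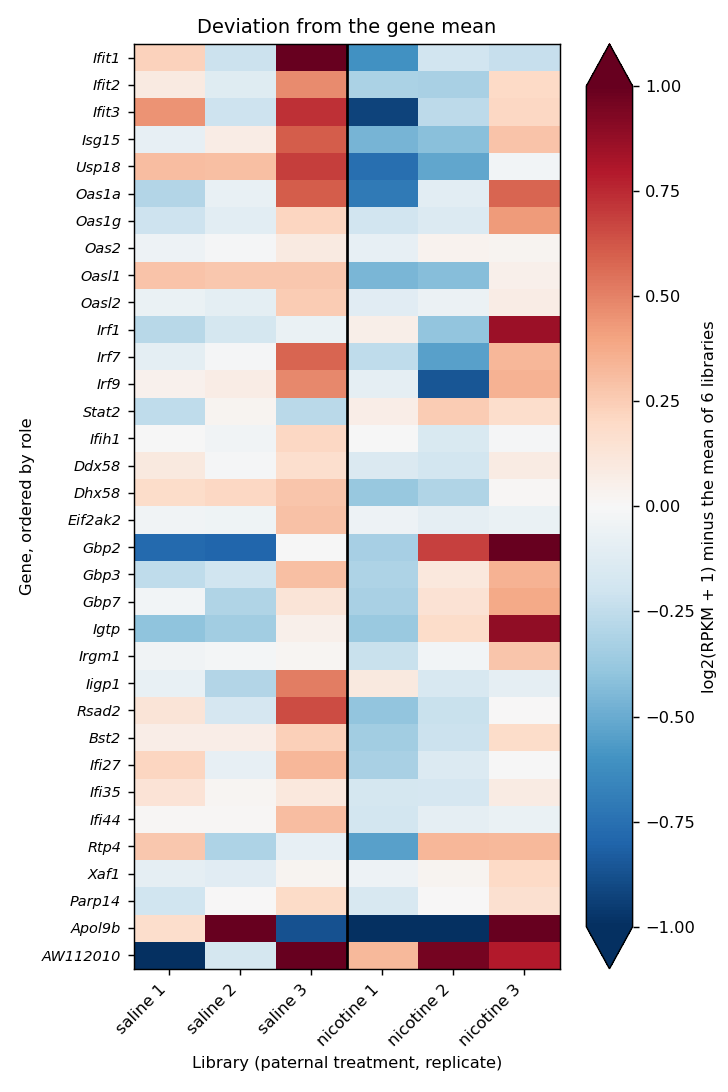
Deviation of each of the 34 members in each library from its own mean over 6 libraries, on the log2(RPKM + 1) scale (colour, limited to 1 in either direction), with genes in rows by role and libraries in columns. Saline replicate 3 and nicotine replicate 3 are the reddest columns of their groups, and Usp18, Oasl1 and Dhx58 are red in saline and blue or pale in nicotine.

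The summed markers of several cell types were highest in replicate 3 of each group, as most members were. The 15 markers of Kupffer cells and macrophages summed to 441, 501 and 870 RPKM in the saline livers, against 439, 792 and 1387 RPKM in the nicotine livers. Of the 14 tested, none passed, 13 had positive fold changes and Clec4f a negative one. Clec4f was at 51.9, 52.4 and 66.7 RPKM against 36.9, 40.4 and 101 RPKM. The 16 markers of T and NK cells summed to 4.18, 4.86 and 7.15 RPKM against 3.28, 9.43 and 30.9 RPKM. Ccl5 alone made 13.2 of the 30.9 RPKM, and 2 of the 16 markers reached the tested level. Cd3e was at 0.643 RPKM in nicotine replicate 3 against 0.0698 to 0.236 RPKM elsewhere. Both lists were highest in replicate 3 of each group and lowest in replicate 1. The 10 neutrophil markers summed to 5.77 to 6.79 RPKM in saline livers, against 26.0 to 86.6 RPKM in nicotine livers, and here replicate 2 was the highest. The 7 markers of plasmacytoid dendritic cells, known producers of type I interferon, summed to 2.32 to 8.04 RPKM outside nicotine replicate 2, with Siglech at 0.0254 to 0.0854 RPKM. In that replicate the sum was 44.6 RPKM, of which Klk1, also a pancreatic gene, made 38.9 RPKM. The sums of sinusoidal endothelial, stellate and B cell markers were also highest in replicate 3 of each group. The 9 endothelial markers summed to at most 76.0 RPKM in saline and 78.6 RPKM in nicotine livers, the 7 stellate cell markers to at most 39.5 and 45.1 RPKM, and the 6 B cell markers to at most 5.23 and 10.6 RPKM. The 8 markers of conventional dendritic cells summed to 1.64 to 4.87 RPKM, and the 5 cholangiocyte markers to 8.68 to 11.4 RPKM in saline and 20.1 to 21.0 RPKM in nicotine livers. No marker of these lists was at 0 in all 6 libraries. In whole liver, fewer cells of a type and less RNA per cell cannot be told apart, and the part of these cells in the levels of the members was not tested. Without replicate 3 of both groups, left out after seeing these values, 0 members passed, and only 108 of all 8659 tested genes did. The median log2 fold change of the members was -0.28 there.

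**Figure D4:**
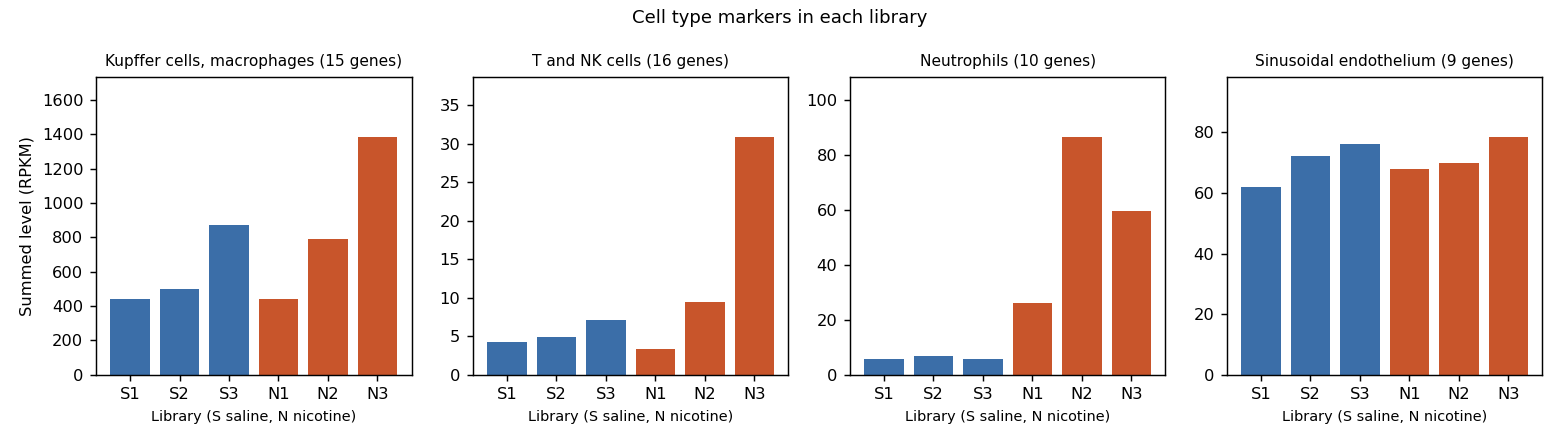
Summed level (RPKM, axis from 0) of cell type markers in each library, blue for paternal saline (S1 to S3) and orange for paternal nicotine (N1 to N3). Macrophage markers reach 870 RPKM in S3 and 1387 RPKM in N3, T and NK cell markers reach 30.9 RPKM in N3, and neutrophil markers are higher in all 3 nicotine livers.

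Interferon transcripts themselves were at or near the limit of detection. Of 21 interferon genes 19 had no read in any library, among them Ifnb1 and all the listed alpha genes, and 3 reads would give at most 0.0865 RPKM for these genes, a limit of counting error only. Ifng had 0, 4 and 0 reads in paternal saline and 0, 7 and 21 reads in paternal nicotine. The highest number was in nicotine replicate 3, the highest nicotine library for 26 of the 34 members. Saline replicate 3, the highest saline library for 29 of the 34, had 0 reads of Ifng. Saline replicate 2, with 4 reads, was the highest saline library for 2 members. A relation of Ifng to the levels of the members was not tested. Of 10 genes of the receptors and their kinases 8 were tested and none passed in limma, with 1 (Jak1) at an unadjusted p under 0.05. Jak1 was at 9.16, 11.2 and 12.1 RPKM against 13.5, 14.3 and 13.5 RPKM (limma adjusted p = 0.133), with groups that did not overlap. Ifnar2 was at 11.3 ± 1.09 against 11.4 ± 0.715 RPKM and Ifngr2 at 5.25 ± 0.942 against 5.46 ± 1.88 RPKM.

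Of 20 sensing and induction genes found, 13 were tested, of which 3 rose (Myd88, Tmem173 and Zbp1), 0 fell and 10 did not pass, with a median log2 fold change of 0.28 against -0.02 for all tested genes. Those that passed were 23.1% of the 13 tested, against 9.28% of all tested genes (3.89% higher). This list and that of the negative regulators were chosen with earlier results of these data known. Their shares of passing genes are therefore counts and not tests of the lists. Myd88, the adaptor of most Toll-like receptors, was at 6.76 ± 0.850 against 11.7 ± 0.0716 RPKM (limma adjusted p = 0.0144). Tmem173, which encodes the DNA-sensing adaptor STING, was at 1.10, 0.961 and 1.74 RPKM against 2.60, 2.97 and 3.73 RPKM (log2 fold change 0.86, SE 0.17, limma adjusted p = 0.0324). Zbp1, a sensor of Z-form nucleic acids and itself interferon-induced, was at 1.39, 1.37 and 1.32 RPKM against 2.79, 3.88 and 5.98 RPKM (log2 fold change 1.10, SE 0.22, limma adjusted p = 0.0358). Neither group pair overlapped, and within paternal nicotine both were highest in replicate 3. Over the alternatives the adjusted p reached 0.106 for Tmem173 and 0.109 for Zbp1, and the count of 3 became 1 without a filter on low values and 0 to 2 on leaving out single libraries, with 0 without paternal nicotine replicate 2. Of 13 tested negative regulators 2 rose (15.4%, against 3.89% of all tested genes), 0 fell and 11 did not pass. Socs3, an inhibitor of cytokine receptors that acts mainly on interleukin 6 signalling, was at 5.09, 3.48 and 1.24 RPKM against 26.7, 32.3 and 24.6 RPKM (log2 fold change 2.86, SE 0.37, limma adjusted p = 0.0121). Ptpn1, a phosphatase of Jak2 and Tyk2, was at 5.33 ± 1.00 against 11.0 ± 0.496 RPKM (limma adjusted p = 0.0144). Both missed the threshold without paternal nicotine replicate 2, at a limma adjusted p of 0.0570 for Socs3 and 0.0639 for Ptpn1, and Ptpn1 also without paternal nicotine replicate 1 (0.0526).

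Of 106 further interferon-stimulated genes found, 54 were tested, of which 5 rose, 1 fell and 48 did not pass, with a median log2 fold change of 0.09. The fold change was negative for 14 of these 54 genes (25.9%) and positive for 40. That share was 70.8% among the tested members and 52.7% among all tested genes, so the lean of the members to negative values was not shared by this list. Those past the test were 11.1% of the list, near the 9.28% of all tested genes. Among those that rose were 3 paralogs of the Ifitm family, membrane proteins that hinder virus entry, which may share reads. Ifitm2 was at 474, 574 and 475 RPKM against 1273, 1116 and 1111 RPKM (log2 fold change 1.20, SE 0.11, limma adjusted p = 0.00607). Ifitm1 was at 3.70 ± 0.433 against 9.41 ± 1.61 RPKM and Ifitm3 at 595 ± 29.4 against 821 ± 84.3 RPKM (limma adjusted p = 0.0101 and 0.0462). Ly6e, a virus-restricting surface protein gene, rose from 9.04 ± 0.462 to 13.0 ± 0.785 RPKM (limma adjusted p = 0.0240). Acod1, whose enzyme makes itaconate in activated macrophages, rose from 0.0953 ± 0.0532 to 2.05 ± 0.951 RPKM (limma adjusted p = 0.0251). Acod1 reached the tested level, a mean of 1 RPKM, through the nicotine livers alone, so a difference was built into its selection, and it is 1 of the 5 counted as rising. Gch1, the first enzyme of tetrahydrobiopterin synthesis, fell from 40.1 ± 8.57 to 22.8 ± 2.63 RPKM (limma adjusted p = 0.0431). Ifitm3, Ly6e, Acod1 and Gch1 each missed the threshold without a filter on low values, and the count of 6 became 2 there and 2 to 4 on leaving out any 1 of the 6 libraries.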

How the data were processed

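RNA-seq was run on the liver of 6 mice, 3 per group, grouped by the labels. The authors deposited 1 RPKM table per library, made with CASAVA and TopHat on build mm8, per the submitters' processing notes. The quantifier and its use of strand were not given in the sources used here. Values under 1e-06 were set to 0. Symbols and coordinates come from GENCODE M21 on GRCm38, which matched 99.9% of 54532 identifiers. All 25531 genes with a read gave whole reads within 0.01, 1021 of them with a length found by search, and each library's total was recovered with them. Differences were tested with limma 3.58.1 in R 4.3.3 (trend and robust) on log2(RPKM + 1), which understates changes of low genes, where the mean over libraries reached 1 RPKM. The fit was tested on simulated data. Alternatives were pseudocounts of 0.1 and 0.01, other filters, rescaling, quantile normalization, voom, a replicate block and leaving out libraries. Copies were searched with blastn 2.17.0 and exonic overlaps with bedtools 2.31.1.

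The members and lists were chosen with earlier results of these data known. Values in every library are given for the 12 tested members of largest fold change, and the 4 of widest spread, and genes of the other pathway lists past the threshold are named with values, while marker lists are given as sums. Stat2, Eif2ak2, Irf7, Bst2, Ifi27, Rsad2 and Ifi44, and single markers, were added after their values were seen.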

Additional observations from a re-analysis of the deposited data

How the results depend on the processing

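The 814 genes past the threshold became 367 with no filter on low values, 383 with a replicate block, 1411 at a threshold of 0.1, 185 to 658 on leaving out 1 library (185 without paternal nicotine replicate 2) and 108 without replicate 3 of both groups, an alternative chosen after seeing the data. The members past it, 0 in the fit reported, were 2 with quantile normalization, 1 with the replicate block (Usp18), 3 at a threshold of 0.1, and 0 to 3 on leaving out 1 library. With quantile normalization 817 of all 8773 tested genes passed. The 3 sensing genes became 1 with no filter, 1 at a mean of at least 5 RPKM, 1 with the block, 5 at a threshold of 0.1, 0 to 2 on leaving out 1 library and 0 without both replicates 3. The 2 negative regulators became 0 to 2 on leaving out 1 library and 1 without both replicates 3. The 6 further interferon-stimulated genes became 2 with no filter, 2 to 4 on leaving out 1 library and 0 without both replicates 3. The cause of these changes was not tested.

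The median log2 fold change of the members, -0.17, stayed between -0.32 and -0.12 under all alternatives run. Some fold changes turned sign. On leaving out 1 library the log2 fold change ranged from -0.48 to 0.16 for Oas1a, -0.12 to 0.14 for Irgm1, -0.27 to 0.13 for Iigp1, -0.10 to 0.10 for Parp14, -1.53 to 0.20 for Apol9b and -0.12 to 2.62 for AW112010. For the receptors and kinases it ranged from -0.16 to 0.16 for Ifngr1, -0.20 to 0.22 for Ifngr2, -0.51 to 0.065 for Ifnar1, -0.069 to 0.053 for Ifnar2, -0.038 to 0.078 for Jak2 and -0.074 to 0.17 for Tyk2. Without both replicates 3 it was -0.10 for Irgm1, 0.15 for Iigp1, 0.033 for Ifngr1, -0.092 for Ifngr2, -0.013 for Ifnar2 and -0.061 for Tyk2. With quantile normalization it was -0.023 for Parp14 and -0.0040 for Jak2.

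The replicate numbers are in the labels, but over all tested genes same-numbered libraries deviated together little (correlations of 0.0071, 0.056 and 0.049). The other pairs were at -0.11 to 0.049. Saline replicates 2 and 3 correlated best with the nicotine replicate of their own number, and saline replicate 1 with nicotine replicate 3. Values this small do not settle a pairing, so the block is given only here. Replicate 3 was the highest of both groups for 15 of the 24 tested members (62.5%), against 21.1% of all tested genes, and with the block the SE of the log2 fold change was 0.092 for Isg15 and 0.13 for Oas1a, neither past the threshold. With 3 livers a group, the interval of a member's fold change reaches from -3.02 to 2.23 for Apol9b, and no statement of no change can be made from it.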
